A study of Drosophila melanogaster with 6 samples.

Results

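The nuclear-encoded subunits of respiratory complex I were taken as all genes whose FlyBase symbol begins with ND-, which gave 37 of the 14150 genes in the count table. Of these, 33 are subunits and 4 are paralogs with an L suffix, ND-20L, ND-51L1 and ND-51L2 among them, which are described apart. ND-MNLL, ND-24L and ND-B14.5AL carry such symbols too and were not analysed here. Polyadenylated RNA was sequenced from brains of female Drosophila melanogaster larvae, dissected at the late L3 stage after 96 h of development at 29 °C. CIN larvae had the genotype w; worniu-gal4, UAS-bub3-i, so that an RNAi transgene against the spindle checkpoint gene Bub3 was expressed under the worniu promoter. The ctrl larvae, w; worniu-gal4, UAS-gfp-i, carried the same driver with an RNAi transgene against gfp, which is no fly gene. There were 6 libraries, CIN 4, CIN 5 and CIN 6 and ctrl 4, ctrl 5 and ctrl 6, each from 3 pooled brains, and the number is the batch, prepared on its own day. The driver acts in neuroblasts, the stem cells of the fly nervous system, whereas the RNA came from whole brains with their neurons and glia.

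Complex I takes electrons from NADH, passes them along a chain of iron-sulfur clusters to ubiquinone and pumps protons across the inner mitochondrial membrane. It is L-shaped: the matrix arm holds the core subunits of electron transfer, and the membrane arm holds the proton-pumping core subunits, which the mitochondrial genome encodes. The other nuclear-encoded subunits are supernumerary and serve mainly in assembly and stability. Most of the ATP of neurons is made by the chain that begins here, while neural stem cells draw on both glycolysis and respiration.

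Bub3 itself measured 80.2, 96.5 and 91.5 CPM in CIN 4, 5 and 6, against 149, 123 and 144 CPM in ctrl 4, 5 and 6. CPM are counts relative to the library's total, scaled by the trimmed mean of M values (TMM). All CIN libraries lay below all ctrl libraries for Bub3, as for 8.18% of tested genes. The log2 fold change of -0.63 ± 0.13 (SE) missed the threshold of 0.05 in the quasi-likelihood F test of edgeR, Benjamini-Hochberg adjusted over all genes (adjusted p = 0.333), and passed in DESeq2 (adjusted p = 0.00364).

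The libraries held 24668180 to 26292208 counts. The brain label was met by its markers: the 8 neuron markers summed to 3487 to 4159 CPM in CIN and 3855 to 4411 CPM in ctrl libraries, the 7 glia markers to 1131 to 2037 CPM and 1444 to 1581 CPM, and the 8 neuroblast markers to 373 to 529 CPM and 559 to 778 CPM. The neuroblast sums of all CIN libraries lay below those of all ctrl libraries. Of these 8 markers 7 had negative log2 fold changes, against 48.7% of all tested genes, with a median of -0.50. In edgeR's test 0 of 8 were called, against 0.0993% of all tested genes. At an unadjusted p under 0.05 there were 2, both lower in CIN, against 3.76% of all tested genes. The neuroblast markers' median log2 ratios were -1.07, -0.27 and -0.02 in batches 4, 5 and 6. Of the 8 neuron markers 2 were also at an unadjusted p under 0.05 in edgeR's test and lower in CIN. Neuron markers had 3 negative and 5 positive log2 fold changes, with a median of 0.07. Tissue attached to the brain differed between libraries. Ring gland markers, of which 6 of 8 were in the table, summed to 2168, 26.2 and 682 CPM in CIN 4, 5 and 6, against 34.2, 1440 and 810 CPM in ctrl 4, 5 and 6, and jhamt was at 0 in CIN 5. Hemocyte markers (8 of 8) summed to 528, 163 and 41.4 CPM in CIN 4, 5 and 6 and to 53.2, 1301 and 106 CPM in ctrl 4, 5 and 6. Fat body markers (6 of 6) summed to 18.2 to 93.3 CPM in CIN and 28.5 to 486 CPM in ctrl libraries, and muscle markers (11 of 11) to 180 to 354 CPM and 160 to 221 CPM. The male dosage compensation RNA lncRNA:roX2 stood at 9.62 CPM in CIN 5 and at 0 to 0.22 CPM in the other libraries, and with lncRNA:roX1 and msl-2 it summed to 1032 CPM in CIN 5 and 192 to 492 CPM elsewhere.

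No subunit of complex I was called different between CIN and ctrl brains. Of the 33 subunits, 32 passed the expression filter, and 0 of these 32 passed edgeR's test over all 10074 tested genes (adjusted p = 0.670 to 0.998). In that comparison 0.0993% of all tested genes were called. At an unadjusted p under 0.05 the subunits numbered 0 of 32, against 7.89% of all tested genes (3.76% lower and 4.13% higher in CIN), and the smallest unadjusted p among them was 0.0873 in edgeR's test. DESeq2 called 0 of 32, against 1.06% of tested genes, and limma-voom called 0 of 32, against 10 of all 10074 tested genes. The p-values rest on how far pools of 3 brains from separate days differed.

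The subunits' fold changes were small and mostly of one sign. The log2 fold changes ran from -0.42 to 0.02 with a median of -0.16, against a median of 0.01 over all tested genes. They were negative for 28 of 32 subunits, against 48.7% of all tested genes. Standard errors were 0.11 to 0.28, and all 32 of the 95% intervals from the edgeR fit lay within a 2-fold difference. At their widest these intervals reached 1.89-fold lower and 1.42-fold higher in CIN. In whole-brain RNA, fewer cells of a type and less RNA per cell cannot be told apart.

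**Figure D1:**
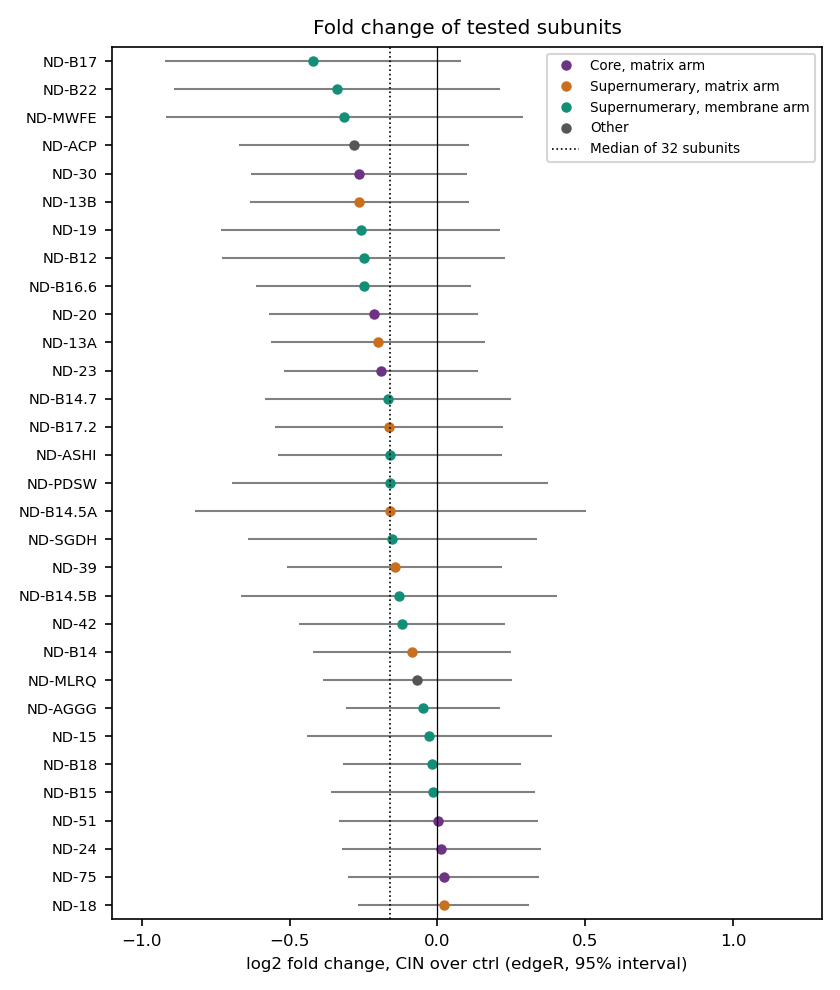
log2 fold change of CIN over ctrl for 31 of the 32 tested subunits, from the edgeR fit, with its 95% interval as a line and the functional class as the colour. The values run from -0.42 for ND-B17 to 0.02 for ND-18, every interval includes 0, and the dotted line marks the median of all 32, -0.16.

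The sign differed between batches, and the shift was largest in batch 5. In batch 4, CIN was lower than ctrl for 2 of 32 subunits, against 50.0% of all tested genes, and the median log2 ratio was 0.15. In batch 5 it was lower for 31 of 32, against 51.0% of tested genes, with a median of -0.59. In batch 6 it was lower for 25 of 32, against 51.3% of tested genes, with a median of -0.07. Ratios of CIN over ctrl thus spanned 0.992 to 1.37 in batch 4, 0.473 to 1.07 in batch 5 and 0.794 to 1.14 in batch 6.

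Only 1 of 32 subunits, ND-30, was lower in CIN in all 3 batches, against 18.5% of tested genes, and 0 of 32 were higher in all 3, against 17.5%. For none of the 32 did the CIN and ctrl libraries separate, whereas 8.18% of tested genes had every CIN library below every ctrl library and 7.1% had every CIN library above. Without batch 5 in both groups, an alternative chosen after seeing the data, the median log2 fold change was 0.05, with 22 positive and 10 negative subunits. Without CIN 5 alone or without ctrl 5 alone it was -0.05, with 21 and 24 of the 32 subunits negative. Without CIN 4 it was -0.28, with 32 negative. No subunit was called in any of these fits (edgeR, smallest adjusted p = 0.476).

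**Figure D2:**
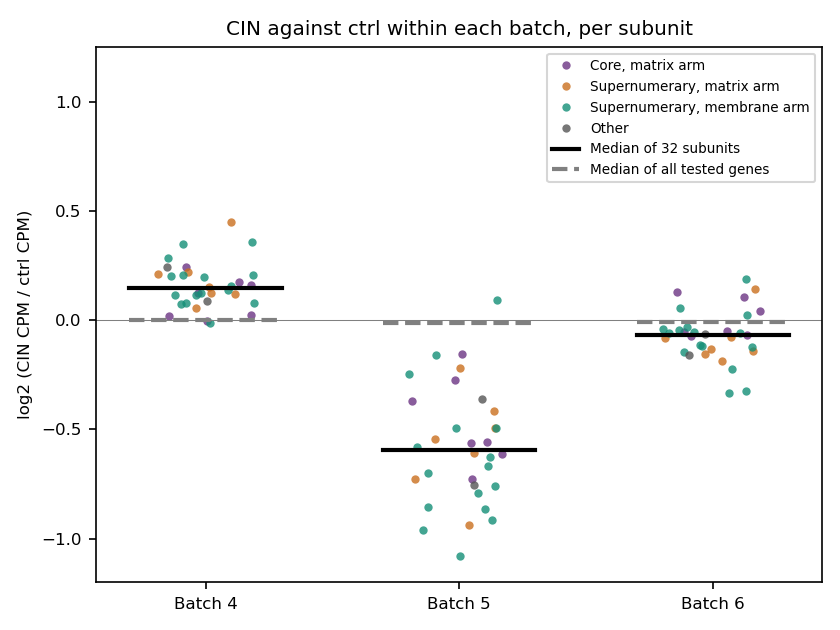
log2 ratio of CIN CPM to ctrl CPM within each batch for the 32 tested subunits, 1 point each, with the median of the subunits as a solid bar and of all tested genes as a dashed bar. The subunits centre on 0.15 in batch 4, -0.59 in batch 5 and -0.07 in batch 6, while all genes centre near 0 in each.

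The same libraries stood at the ends for most subunits. CIN 5 was the lowest of the 6 libraries for 28 of 32 subunits, against 24.5% of tested genes, and ctrl 5 the highest for 21 of 32, against 19.8%. Both held at once for 18 of 32 subunits and 6.02% of tested genes. The median deviation of the subunits from their mean log2 CPM was 0.15, -0.31 and -0.06 in CIN 4, 5 and 6, against 0.00, 0.30 and 0.02 in ctrl 4, 5 and 6. CIN 4 and ctrl 5, the libraries above the others, also held the most ring gland and hemocyte marker RNA, and CIN 5 the least ring gland marker RNA. Ctrl 4 held nearly as little of the latter, at 34.2 against 26.2 CPM, with a subunit deviation of 0.00 against -0.31 in CIN 5. Hemocyte markers summed to 163 CPM in CIN 5, more than in CIN 6, ctrl 4 and ctrl 6. Glia markers summed to 2037, 1131 and 1757 CPM in CIN 4, 5 and 6. In ctrl 4, 5 and 6 they summed to 1518, 1581 and 1444 CPM. The glia sum was thus lowest in CIN 5, as were the subunits, but highest in CIN 4, whereas the subunits were highest in ctrl 5. CIN 6 had the next highest glia sum, with a subunit deviation of -0.06. The part of attached tissue, of glia and of neuroblasts in the subunits' levels was not tested. Without CIN 5 and ctrl 4, the libraries nearly free of ring gland markers, the median log2 fold change was -0.12, with 10 positive and 22 negative subunits; this alternative too was chosen after seeing the data.

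The core subunits of the matrix arm carry the path of the electrons. ND-51, the counterpart of human NDUFV1, binds NADH and the flavin that accepts its electrons. It measured 164, 119 and 150 CPM in CIN 4, 5 and 6, against 139, 154 and 139 CPM in ctrl 4, 5 and 6. CIN held both the highest and the lowest library, and the means of 144 ± 23.0 CPM in CIN and 144 ± 8.70 CPM in ctrl (SD, n = 3 each) gave 0.00 ± 0.14 as the log2 fold change (SE; edgeR, adjusted p = 0.998). Its partner ND-24 (NDUFV2), which holds an iron-sulfur cluster beside the flavin, measured 89.9, 66.7 and 86.6 CPM in CIN 4, 5 and 6, against 82.6, 74.3 and 84.1 CPM in ctrl 4, 5 and 6. Here batch 5 was the lowest in both genotypes, and the log2 fold change was 0.01 ± 0.14 (edgeR, adjusted p = 0.988). ND-75 (NDUFS1), the largest subunit and the carrier of further clusters, measured 233, 174 and 214 CPM in CIN 4, 5 and 6, against 207, 210 and 195 CPM in ctrl 4, 5 and 6. CIN 4 was its highest and CIN 5 its lowest library, and the ctrl values lay between them, with 0.02 ± 0.14 as its log2 fold change (edgeR, adjusted p = 0.977).

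Further core subunits form the part of the arm that reduces ubiquinone. ND-20 (NDUFS7), which holds the terminal cluster of the chain, measured 110, 98.0 and 99.5 CPM in CIN 4, 5 and 6, against 109, 144 and 105 CPM in ctrl 4, 5 and 6. Here ctrl 5 was highest and CIN 5 lowest, with the other libraries between them, and the log2 fold change was -0.22 ± 0.15 (SE; edgeR, adjusted p = 0.730). ND-30 (NDUFS3), a structural subunit of this module without a cluster, measured 110, 82.8 and 103 CPM in CIN 4, 5 and 6, against 110, 137 and 108 CPM in ctrl 4, 5 and 6. Its CIN over ctrl ratios were 0.996, 0.604 and 0.954 in batches 4, 5 and 6, so the shared sign rested on a near-equal pair in batch 4, and the log2 fold change was -0.27 ± 0.15 (edgeR, adjusted p = 0.703). ND-23 (NDUFS8), with clusters just before the terminal one, measured 61.9, 47.0 and 59.9 CPM in CIN 4, 5 and 6, against 61.1, 69.4 and 62.1 CPM in ctrl 4, 5 and 6. Apart from CIN 5 and ctrl 5 its values lay within 59.9 to 62.1 CPM, and the log2 fold change was -0.19 ± 0.14 (edgeR, adjusted p = 0.744).

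Among these core subunits, the NADH-oxidising ND-51, ND-24 and ND-75 thus had the log2 fold changes nearest 0, and ND-30, ND-20 and ND-23 of the ubiquinone-reducing part had values of -0.19 to -0.27, all within about 2 standard errors of 0. Whether these modules differ was not tested.

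Of the 8 supernumerary subunits of the matrix arm, 7 were tested, with a median log2 fold change of -0.16 and negative values for 6. ND-18 (NDUFS4), which holds the NADH-oxidising module in place in mammals, had the highest value of all subunits, at 0.02 ± 0.12 (edgeR, adjusted p = 0.973). It measured 59.5, 48.4 and 61.3 CPM in CIN 4, 5 and 6, against 54.7, 56.4 and 55.6 CPM in ctrl 4, 5 and 6. The ctrl libraries were nearly equal and the CIN libraries lay on both sides of them. ND-13A (NDUFS6), a zinc-binding subunit, measured 41.0, 30.1 and 34.8 CPM in CIN 4, 5 and 6, against 37.6, 45.9 and 38.3 CPM in ctrl 4, 5 and 6, with -0.20 ± 0.15 as its log2 fold change (edgeR, adjusted p = 0.754). CIN 5 was its lowest and ctrl 5 its highest library. ND-39 (NDUFA9), at the joint of the arms, was the most abundant of this class per library, with 133 to 191 CPM in CIN and 172 to 194 CPM in ctrl libraries. ND-B14.5A (NDUFA7), chosen after its values were seen, measured 55.0, 25.7 and 33.2 CPM in CIN 4, 5 and 6, against 40.2, 49.2 and 37.8 CPM in ctrl 4, 5 and 6. Its ratio was the highest of all subunits in batch 4, at 1.37, and 0.523 in batch 5.

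ND-B8 (NDUFA2) was the subunit left out by the filter, and it is described after its values were seen. It had 1, 6 and 4 counts in CIN 4, 5 and 6, against 3, 7 and 3 counts in ctrl 4, 5 and 6. That is 0.34 CPM per kb of exon over the 6 libraries, against 13.3 CPM per kb for the next lowest subunit, ND-MWFE, which the filter kept. ND-B8 lies at 2L:4454626-4455207 in BDGP6 coordinates, the assembly that dm6 names, and 15.4% of its exon bases are shared with Gs1l, a gene of the opposite strand. Subunits that share more of their exon bases had far more counts, with 1706 over the 6 libraries for ND-MWFE (35.0% shared), 12104 for ND-B22 (26.1%) and 10878 for ND-15 (15.9%). How overlapping and multi-mapping reads were counted is not given in the sources, so these counts cannot decide the cause. The cause of the low ND-B8 count was not tested.

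The 16 supernumerary subunits of the membrane arm all had log2 fold changes below 0, from -0.42 to -0.02, and none was called. Their median was -0.16. The lowest of all subunits was ND-B17 (NDUFB6), which measured 84.3, 50.3 and 66.3 CPM in CIN 4, 5 and 6, against 79.8, 106 and 82.9 CPM in ctrl 4, 5 and 6. The groups overlapped through CIN 4, and the log2 fold change was -0.42 ± 0.21 (SE; edgeR, adjusted p = 0.670). Its 95% interval was -0.92 to 0.08. ND-B22 (NDUFB9) measured 74.7, 68.3 and 67.7 CPM in CIN 4, 5 and 6, against 68.5, 124 and 73.6 CPM in ctrl 4, 5 and 6. Here 5 libraries were alike and ctrl 5 stood apart, with -0.34 ± 0.23 as its log2 fold change (edgeR, adjusted p = 0.730), and without batch 5 in both groups the value was 0.0043. ND-B22 shares 26.1% of its exon bases with CG31855.

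ND-MWFE (NDUFA1), needed in mammals for the complex to assemble, measured 13.0, 7.68 and 9.29 CPM in CIN 4, 5 and 6, against 10.7, 14.9 and 11.7 CPM in ctrl 4, 5 and 6. CIN 4 overlapped ctrl and the other CIN libraries lay below it, with -0.31 ± 0.25 as its log2 fold change (SE; edgeR, adjusted p = 0.769). It shares 35.0% of its exon bases with TppII and Nrk. ND-ASHI (NDUFB8) measured 58.3, 44.2 and 53.5 CPM in CIN 4, 5 and 6, against 50.5, 68.1 and 55.7 CPM in ctrl 4, 5 and 6, with -0.16 ± 0.16 as its log2 fold change (edgeR, adjusted p = 0.802). Its groups interleaved, with batch 5 at both ends.

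ND-AGGG, chosen after its values were seen, was the exception to the library pattern. It measured 78.0, 86.9 and 77.8 CPM in CIN 4, 5 and 6, against 78.6, 81.5 and 91.0 CPM in ctrl 4, 5 and 6, and it alone of the 32 was higher in CIN 5 than in ctrl 5. Its coefficient of variation over the 6 libraries was 6.64%, and 16.9% when taken as a share of the summed complex I level. The median subunit went the other way, with 15.3% for CPM and 7.91% for the share, and the share varied less for 28 of 32 subunits. The exceptions were ND-AGGG, ND-18, ND-24 and ND-B18. The other subunits thus moved largely together from library to library.

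**Figure D3:**
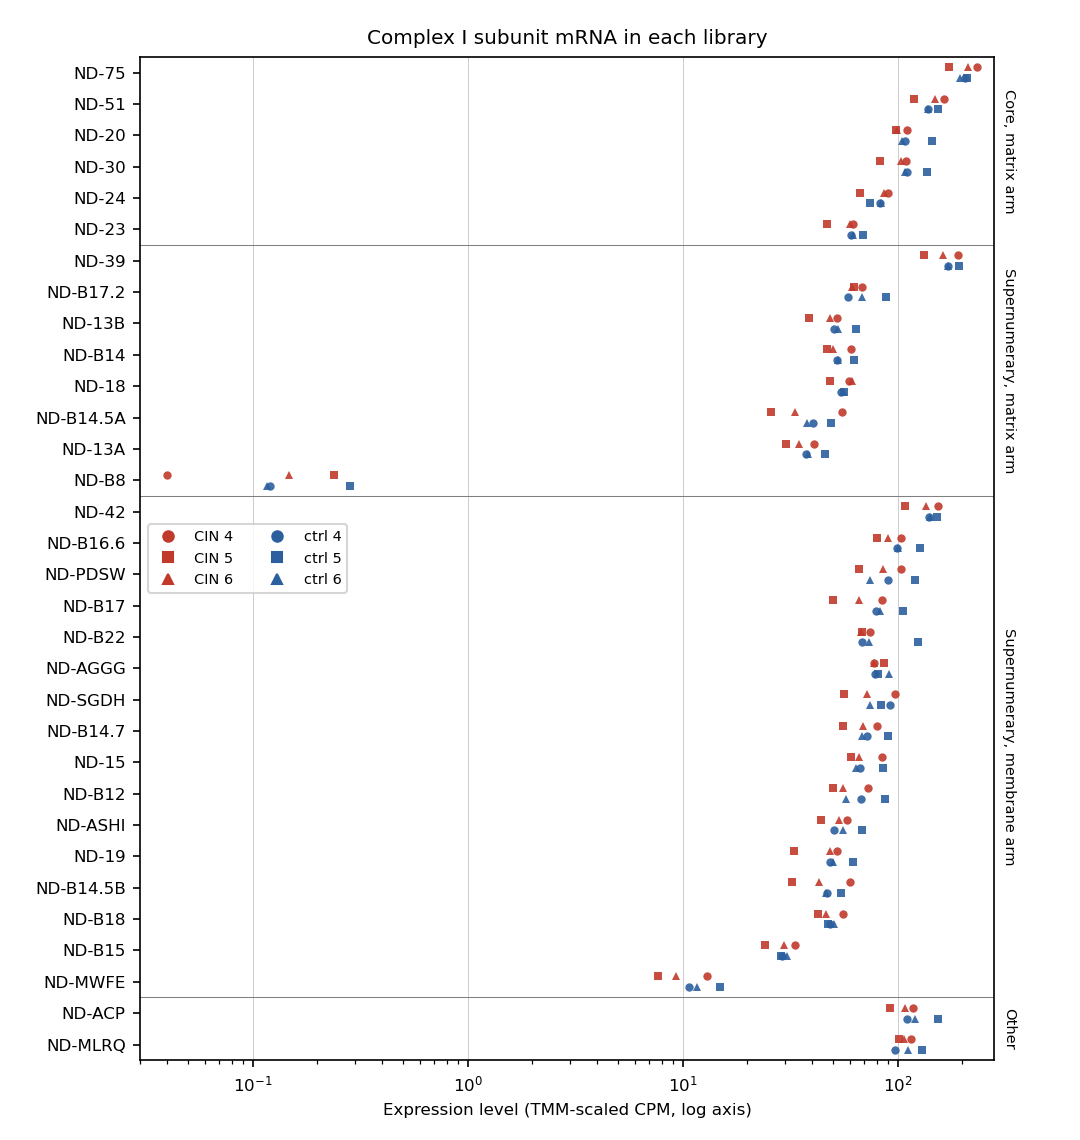
TMM-scaled CPM of 32 of the 33 subunits in each of the 6 libraries on a log axis, grouped by arm and class, with CIN in red above ctrl in blue and the batch as the symbol. CIN 5 is the lowest and ctrl 5 the highest point in most rows, and ND-B8 lies far below the rest, at 0.04 to 0.28 CPM.

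A pair of genes in the set have a separate status. ND-ACP (NDUFAB1) is the mitochondrial acyl carrier protein, which also serves fatty acid synthesis. It measured 118, 91.8 and 109 CPM in CIN 4, 5 and 6, against 111, 155 and 121 CPM in ctrl 4, 5 and 6, with -0.28 ± 0.16 as its log2 fold change (SE; edgeR, adjusted p = 0.703). ND-MLRQ (NDUFA4), since assigned to complex IV in mammals, measured 115.4, 101 and 107 CPM in CIN 4, 5 and 6, against 97.4, 130 and 112 CPM in ctrl 4, 5 and 6, with -0.07 ± 0.13 (edgeR, adjusted p = 0.910). In both genes ctrl 5 was highest and the groups overlapped. NP15.6, the fly NDUFB11, is a subunit whose symbol does not begin with ND- and stands outside the counts above. It measured 78.5, 59.2 and 67.7 CPM in CIN 4, 5 and 6, against 79.0, 93.8 and 74.5 CPM in ctrl 4, 5 and 6, with -0.27 ± 0.15 (edgeR, adjusted p = 0.702), and it followed the others in being lowest in CIN 5 and highest in ctrl 5.

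Per kilobase of exon, the subunits were expressed at similar levels. The median of the 32 tested subunits was 84.4 CPM per kb over the 6 libraries, and the interquartile range was 68.2 to 103 CPM per kb. The highest levels were 205 CPM per kb for ND-MLRQ and 140 CPM per kb for ND-ACP, the genes with other functions, and the lowest were 13.3 for ND-MWFE and 39.8 CPM per kb for both ND-ASHI and ND-13A. The 6 assembly factors described below had 7.08 to 16.9 CPM per kb, a range that includes ND-MWFE and lies below every other tested subunit. This measure divides by annotated exon length. Before that division the assembly factor Nubpl stood among the subunits, as its CPM below show. Of the 33 subunits, 15 share exon bases with another gene, whose reads cannot be told apart without strand, and the 18 tested subunits that share none had a median log2 fold change of -0.16. The subunit genes are scattered, with 9 on 2L, 7 on 3L and 8 on X among others, and the closest pair, ND-PDSW and ND-B14.5B, lies 320309 bp apart. The 8 X-linked subunits had a median log2 ratio of -0.42 in batch 5 and the 24 tested autosomal subunits -0.61, beside the roX2 RNA of CIN 5 given above. In batch 4 both medians were 0.15, and in batch 6 both were -0.07. The part of sex, or of which subunits are X-linked, in these values was not tested.

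The 4 L-suffix paralogs, known from adult flies as testis genes, were at or near 0 in the brain. ND-51L1 had 1, 5 and 5 counts in CIN 4, 5 and 6, against 2, 6 and 0 counts in ctrl 4, 5 and 6. ND-51L2 had 1 count in CIN 6 and 0 elsewhere, and ND-20L had 0 counts in all 6 libraries, which at 3 counts as the limit allows up to 0.110 to 0.122 CPM. None reached the filter, so none was tested. The parent genes ND-51 and ND-20 stood at 98.0 to 164 CPM, and reads that a paralog shares with its parent cannot be told apart here. Of the testis markers 9 of 11 were in the table, and these summed to 14.02 to 17.6 CPM in CIN and 15.4 to 18.8 CPM in ctrl libraries. The 6 genes aly, sa, nht, Mst87F, Mst98Cb and dj were under 1 CPM in every library. The other 3 passed the filter, with 1.35 to 2.19 CPM in CIN and 1.79 to 3.86 CPM in ctrl libraries for can, 6.45 to 11.4 CPM and 8.53 to 12.1 CPM for mia, and 3.67 to 5.78 CPM and 3.46 to 4.48 CPM for betaTub85D.

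The summed levels of complexes III, IV and V were, like that of complex I, lowest in CIN 5 and highest in ctrl 5, while complex II was lowest in CIN 5 and highest in CIN 4. Nuclear complex I transcripts summed to 2933, 2196 and 2593 CPM in CIN 4, 5 and 6, against 2646, 3219 and 2680 CPM in ctrl 4, 5 and 6. The group means were 2574 ± 369 CPM in CIN and 2848 ± 322 CPM in ctrl (SD, n = 3 each), a log2 ratio of -0.15 and a difference smaller than the SD of either group. Without batch 5 in both groups it was 0.05. Complexes II to V summed to 9854, 7270 and 8924 CPM in CIN 4, 5 and 6, against 8864, 11002 and 9613 CPM in ctrl 4, 5 and 6. The ratio of complex I to complexes II to V was therefore 0.298, 0.302 and 0.291 in CIN 4, 5 and 6, against 0.298, 0.293 and 0.279 in ctrl 4, 5 and 6, a 1.08-fold range where the complex I sum itself spanned 1.47-fold. Complex V makes up most of that pooled sum. Complex II, the smallest, summed to 456.02, 330 and 406 CPM in CIN 4, 5 and 6, against 436, 418 and 428 CPM in ctrl 4, 5 and 6. Its ctrl libraries were nearly equal, with ctrl 5 the lowest of them, and the ratio of complex I to complex II spanned 1.27-fold, up to 7.71 in ctrl 5.

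The 34 tested subunits of complexes II to V had a median log2 fold change of -0.17 and negative values for 33, against 48.7% of all tested genes. In edgeR's test 0 were called, against 0.0993% of all tested genes, and 0 were at an unadjusted p under 0.05, against 7.89%. CIN was lower than ctrl for 2, 34 and 33 of the 34 in batches 4, 5 and 6, against 50.0%, 51.0% and 51.3% of all tested genes. The median log2 ratios were 0.13, -0.60 and -0.13 in these batches. By complex the medians were -0.13 for II, -0.17 for III, -0.17 for IV and -0.17 for V over 4, 8, 9 and 13 genes. The most abundant members were SdhA and SdhB of complex II, the flavin and iron-sulfur subunits, with -0.04 ± 0.14 and -0.12 ± 0.12 (SE), and UQCR-C1 and UQCR-C2, the core proteins of complex III, with -0.17 ± 0.16 and -0.15 ± 0.16. In complex IV COX6B and COX5A had -0.17 ± 0.18 and -0.14 ± 0.15, and in complex V, the ATP synthase, ATPsynC of the rotor ring had -0.29 ± 0.17 and blw, the alpha subunit, -0.10 ± 0.13.

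**Figure D4:**
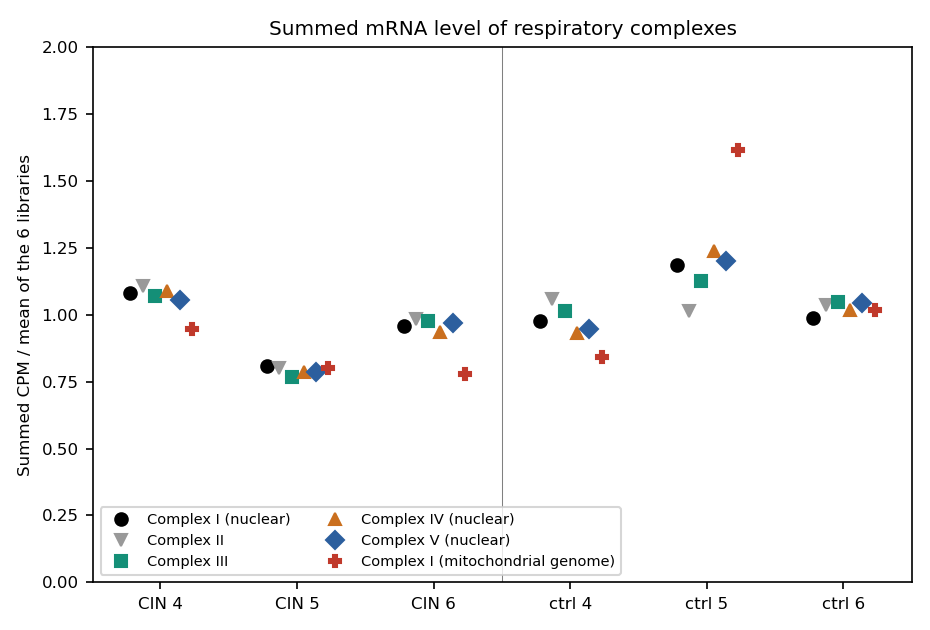
Summed CPM of each respiratory complex in each library, divided by its mean over the 6 libraries, with CIN libraries left of ctrl libraries. The nuclear-encoded sums of complexes I, III, IV and V are lowest in CIN 5 and highest in ctrl 5, complex II is lowest in CIN 5 and highest in CIN 4, and the mitochondrially encoded subunits of complex I rise furthest above their mean in ctrl 5.

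The 7 complex I subunits of the mitochondrial genome showed a wider spread. They summed to 3436, 2902 and 2833 CPM in CIN 4, 5 and 6, against 3060, 5868 and 3689 CPM in ctrl 4, 5 and 6, so the groups overlapped and ctrl 5 stood apart. The log2 fold change was negative for all 7, against 48.7% of all tested genes, and -0.47 at the median. Calls by edgeR numbered 0 of 7, against 0.0993% of all tested genes. At an unadjusted p under 0.05 there were 2 of 7, both lower in CIN, against 3.76% of all tested genes. These were mt:ND6, with 23.4, 21.9 and 21.1 CPM in CIN 4, 5 and 6 against 33.0, 60.4 and 32.1 CPM in ctrl 4, 5 and 6, and mt:ND4L, with 34.7, 39.8 and 28.7 CPM against 46.0, 81.7 and 41.6 CPM. Their groups did not overlap, with every CIN library below every ctrl library as for 8.18% of tested genes, and their log2 fold changes were -0.92 ± 0.26 and -0.71 ± 0.28 (SE; edgeR, adjusted p = 0.514 and 0.603).

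Genes that build the complex gave no call either. Of 14 names fixed for assembly factors, 6 different genes were found, with a median log2 fold change of -0.08 and negative values for 5. In edgeR's test 0 of 6 were called, against 0.0993% of all tested genes, and 0 were at an unadjusted p under 0.05, against 7.89%. At these shares a list this short would hold few such genes, so the counts of 0 say little about it. The same holds for the short lists below. Nubpl, which delivers iron-sulfur clusters, measured 85.0, 78.7 and 82.5 CPM in CIN 4, 5 and 6, against 84.0, 91.1 and 77.4 CPM in ctrl 4, 5 and 6 (log2 fold change -0.04 ± 0.11). CIA30, the fly NDUFAF1, measured 19.2, 12.3 and 15.1 CPM in CIN 4, 5 and 6, against 18.3, 22.5 and 14.9 CPM in ctrl 4, 5 and 6 (-0.26 ± 0.23). The groups overlapped in both. CG3270, named after its values were seen, was abundant in a single library, with 36.6, 2.46 and 7.56 CPM in CIN 4, 5 and 6 against 8.52, 3.41 and 3.00 CPM in ctrl 4, 5 and 6.

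Enzymes that supply NADH to the complex had a median log2 fold change nearer 0, though their levels differed between libraries too. The 12 tested enzymes of pyruvate oxidation and the tricarboxylic acid cycle had 6 negative and 6 positive log2 fold changes and a median of 0.01. In edgeR's test 0 were called, against 0.0993% of all tested genes, and 0 were at an unadjusted p under 0.05, against 7.89%. The abundant aconitase mAcon1 and the succinyl-CoA synthetase subunit ScsbetaA had 0.02 ± 0.17 and 0.04 ± 0.18 (SE). The batch medians were 0.21, -0.27 and 0.04 in batches 4, 5 and 6, in the same order as for complex I, at 0.15, -0.59 and -0.07. In batch 4 the enzymes thus lay further from 0 than complex I. Their sum spanned 1.43-fold over the 6 libraries, against 1.47-fold for complex I. The 5 genes that reoxidise cytosolic NADH had a median of 0.26 and 0 calls, and their most abundant members Mdh1 and Got2, of the malate-aspartate shuttle, had -0.02 ± 0.27 and 0.09 ± 0.22.

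Of the regulators of mitochondrial biogenesis, 6 of 7 fixed names were tested, with 3 negative and 3 positive values and a median of -0.01. In edgeR's test 0 were called, against 0.0993% of all tested genes, and again 0 were at an unadjusted p under 0.05, against 7.89%. The gene srl, or spargel, the fly member of the PGC-1 family of coactivators, measured 74.9, 80.7 and 74.0 CPM in CIN 4, 5 and 6, against 88.6, 87.4 and 85.9 CPM in ctrl 4, 5 and 6. All CIN libraries lay below all ctrl libraries, as for 8.18% of tested genes, with -0.19 ± 0.10 as its log2 fold change (SE; edgeR, adjusted p = 0.670). The transcription factor ewg, related to mammalian NRF1, measured 131, 211 and 177 CPM in CIN 4, 5 and 6, against 165, 160 and 177 CPM in ctrl 4, 5 and 6 (0.05 ± 0.18), with CIN at both ends.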

How the data were processed

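The authors deposited 1 table of raw counts per gene for the 6 libraries, not normalized. Reads were handled with Trim Galore, STAR 2.7.10a and featureCounts on dm6, per the submitters' processing notes, and libraries were poly(A)-selected with 13 cycles of amplification, per the labels' protocols, with a kit that does not mark strand. The sources used here do not give the treatment of overlapping and multi-mapping reads. Symbols were matched for 14074 of 14150 genes, and exon lengths and coordinates came from an Ensembl annotation of BDGP6. No sequences are printed, since none were used.

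CIN was tested against ctrl in R 4.3.3 by edgeR 4.0.16 (filterByExpr, TMM, glmQLFit, glmQLFTest), two-sided, with Benjamini-Hochberg adjustment over 10074 genes at 0.05. The script was tested on simulated data. SE is the log2 fold change divided by the square root of F. Members were not tested as a set. Values of 1 subunit and its paralog are not reported here, though counts and sums over the set include them. Alternatives were library totals without TMM, RLE size factors, a filter of 1 CPM in 3 libraries, no filter, DESeq2 1.42.0, limma-voom (limma 3.58.1), a replicate block and each library left out. Named genes were Bub3, the core subunits, the 3 highest and 3 lowest fold changes and levels per kb, paralogs with a count, genes of separate status, and from each further list up to 3 members at an unadjusted p under 0.05 or the 2 most abundant. Members and lists were chosen with earlier results of these data known. With 3 libraries a group, an exact permutation test cannot go below 0.1, and none was run.

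The batch numbers pair the libraries, as the labels give batches and the series gives different days. The correlation across genes of the paired libraries' deviations from their group means was 0.04, -0.08 and 0.20 in batches 4, 5 and 6. Between libraries of different batches it ran from -0.24 to 0.13. CIN 4 correlated more with ctrl 5 (0.12) and CIN 5 more with ctrl 6 (0.13) than with the ctrl library of its own batch. The pairing thus shows little in the counts themselves.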

Additional observations from a re-analysis of the deposited data

How the results depend on the processing

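In every setting run, 0 complex I subunits were called, and their smallest adjusted p was 0.476, for ND-B17 without CIN 4 (edgeR). There, ND-B17 and ND-B14.5A were at an unadjusted p under 0.05. The subunits' median log2 fold change ran from -0.12 without TMM to -0.17 with limma-voom. Leaving out 1 library, or CIN 5 and ctrl 4, gave -0.28 to -0.05, and -0.25 to -0.04 for the log2 ratio of summed levels, while both were 0.05 without batch 5 in both groups.

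Over all genes, 10 were called, against 107 by DESeq2, 0 with the batch as a replicate block, 0 without batch 5 in both groups and 1 to 7 with the other libraries left out. The block changed no call among the subunits, whose median was then -0.17.

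Some log2 fold changes changed sign, none of them called, and the cause was not tested. Not all of these were near 0 in the main fit, which gave -0.34 for ND-B22, -0.26 for CIA30 and -0.16 for ND-ASHI. ND-51 had -0.0079 with limma-voom, -2.81e-05 without a filter and -0.0073 with the replicate block. Without TMM, Nubpl had 0.0044 and Mdh1 0.015. Without batch 5 in both groups, values were 0.0043 for ND-B22, 0.076 for ND-ASHI, 0.090 for ND-MLRQ, 0.055 for Nubpl, 0.044 for CIA30, 0.035 for SdhA, 0.027 for UQCR-C1, 0.0060 for UQCR-C2, 0.073 for COX6B, 0.025 for COX5A, 0.26 for Mdh1 and -0.15 for ewg.

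Leaving out 1 library, or CIN 5 and ctrl 4, gave -0.10 to 0.12 for ND-51, -0.069 to 0.15 for ND-24, -0.076 to 0.14 for ND-75, -0.053 to 0.12 for ND-18, -0.17 to 0.043 for ND-MLRQ, -0.093 to 0.022 for Nubpl and -0.16 to 0.11 for SdhA. It gave -0.12 to 0.17 for mAcon1, -0.11 to 0.17 for ScsbetaA, -0.40 to 0.19 for Mdh1, -0.18 to 0.32 for Got2 and -0.13 to 0.21 for ewg.

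Each tested subunit had at least 194 counts in every library. Precision was limited by 3 libraries a group, with SE of 0.11 to 0.28 on the log2 scale.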
